A study of Homo sapiens with 12 samples.

Results

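The genes described here encode the proteins by which cells hold on to one another and to the extracellular matrix, in 2 human B-cell lines with low or high *UGT2B17*. They were chosen by symbol from the tables of both lines and comprise the integrin subunits, the talins, the collagens, the laminins, the latent TGF-beta binding proteins, the cadherins, the protocadherins, the FAT cadherins and the teneurins. *PCDH11X* and *PCDH11Y* were left out. The choice gave 141 of the 23533 genes in either table, of which 120 were in the MEC1 table, 99 in the JVM2 table and 78 in both. There were 23 integrin subunits, 2 talins, 25 collagens, 10 laminins, 4 latent TGF-beta binding proteins, 15 cadherins, 43 protocadherins, 4 FAT cadherins and 3 teneurins. The other 12 have a matching symbol but encode no such protein, being antisense RNAs, pseudogenes, integrin-binding partners and *COL4A3BP*, which encodes a ceramide transfer protein.

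MEC1 and JVM2 are established lines of neoplastic human B cells. MEC1-CTRL cells carried a stable shRNA against *UGT2B17*, the gene of a steroid and lipid glucuronidating enzyme, and were kept in puromycin. MEC1-2B17 cells carried the coding sequence of *UGT2B17* in pcDNA6 and were kept in blasticidin, so in this line the arms also differ in construct and antibiotic. JVM2-CTRL cells carried the empty pcDNA6 vector and JVM2-2B17 cells the vector with *UGT2B17*, both in blasticidin. Each arm was 1 stably selected population sequenced as 3 biological replicates, 12 libraries in all. Whether a population was a pool or a clone is not given in the sources used here, and a difference between populations that arose in selection cannot be told apart from one that follows *UGT2B17*.

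Integrins are pairs of an alpha and a beta subunit that bind matrix proteins or receptors on other cells, and talins link the tail of the beta subunit to actin and switch integrins on. In B cells the best known pairs are LFA-1 (*ITGAL* with *ITGB2*), VLA-4 (*ITGA4* with *ITGB1*) and the gut-homing pair of *ITGA4* with *ITGB7*, which steer entry into lymphoid tissue and retention there. Collagens and laminins build the matrix itself, latent TGF-beta binding proteins store TGF-beta in it, and cadherins, protocadherins, FAT cadherins and teneurins bind partners on neighbouring cells.

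Libraries held 31762649 to 37744991 counts in MEC1 and 8809179 to 11231330 in JVM2, so that low genes were measured less precisely in JVM2. *UGT2B17* had 447, 371 and 346 counts in MEC1-CTRL and 766, 673 and 637 in MEC1-2B17 (0.94 as log2 fold change). In JVM2 it had 299, 281 and 258 counts in CTRL and 389, 402 and 315 in 2B17, a log2 fold change of 0.48, so both lines followed their labels. All 6 B-cell markers examined were in both tables, summing to 2247 to 2304 CPM (counts scaled by TMM library size) in MEC1-CTRL, 2032 to 2103 in MEC1-2B17, 1292 to 1313 in JVM2-CTRL and 1250 to 1488 in JVM2-2B17. The summed level of T and NK cell markers was lower in 2B17 in both lines. It was 19.7 to 20.3 CPM in MEC1-CTRL and 12.3 to 13.4 in MEC1-2B17, and 46.5 to 50.3 in JVM2-CTRL and 33.7 to 41.4 in JVM2-2B17. Of 6 such markers 5 were in the MEC1 table and 2 in the JVM2 table, with *CD3D* in neither, and their part in the results was not tested. In each line 2 of these markers had enough counts for a test, and 1 was lower and 1 not past the threshold. Markers of myeloid cells summed to at most 1.70 CPM, and endothelial markers (*CDH5*, *CLDN5*, *KDR*, *TEK* and *VWF*) were in neither table. Library 3 of MEC1-CTRL and library 2 of JVM2-2B17 lay furthest from the other libraries of their arms, with a mean chi-square per gene of 6.86 to 8.62, and leaving out each left 27 and 34 changed genes among those described, against 28 and 31 with all libraries.

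A gene was called changed when the adjusted *P* of edgeR's quasi-likelihood test, computed over all genes of the line, was below 0.05, and fold changes are given as log2 of 2B17 over CTRL with their standard error (SE). In MEC1, 66 adhesion and matrix genes had enough counts to be tested. Of these 28 were changed (42.4%), 13 higher and 15 lower in MEC1-2B17, beside 41.7% of all genes tested in the line, so the share was near that of the genome. The other 54 genes in the MEC1 table and 41 in the JVM2 table had too few counts for a test. Some genes passed the count filter only through the arm where they were high, so their calls are not independent of that filter. Through 2B17 these include *LAMA5*, *ITGAD*, *ITGAX* and *PCDHGA12* in JVM2 and *LAMB2* in MEC1. Through CTRL they include *FAT1*, *LTBP1*, *COL14A1*, *FAT2*, *CDH11*, *CDH8* and *PCDHGB4* in JVM2. In JVM2, 58 were tested and 31 changed (53.4%), 12 higher and 19 lower in JVM2-2B17, beside 29.3% of all genes. Changes over 2-fold were made by 9 of the 66 genes tested in MEC1 and 16 of the 58 in JVM2, beside 5.30% and 6.23% of all genes. The JVM2 counts include *FAT1*, *TENM1*, *LTBP1* and *COL14A1*, whose falls were known when the genes were chosen. The median log2 fold change of the adhesion and matrix genes was −0.05 in MEC1 and −0.03 in JVM2, and that of all genes 0.0026 and 0.00012. In RNA from whole cultures, fewer cells of a type and less RNA per cell cannot be told apart.

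The 4 steepest falls were seen in JVM2 and took *FAT1*, *TENM1*, *LTBP1* and *COL14A1*, 4 genes of different families, from at least 560 counts a library to 24 or fewer. They were the only adhesion and matrix genes to fall by more than 16-fold in JVM2, beside 0.622% of all genes in the line, and none did so in MEC1, beside 0.0784%. These 4 were known when the genes were chosen, so their falls are given as a description. The adjusted *P*-values printed with them below, and that of the interaction for *LTBP1*, are no independent test. Their number cannot be weighed against the share of all genes. The 250 bases before the start of *FAT1*, *LTBP1* and *TENM1*, and of *TLN2* and *ITGB5*, which rose, are given here with each CpG in capitals. They come from the RefSeq promoter table (GRCh38.p14) and were picked with the changes of these genes known. Other genes with clear changes, such as *LAMB2* and *ITGB7* in MEC1, had an entry too and are not shown. The window lies at chr4:186726697-186726946 on the minus strand for *FAT1*, chr2:32946703-32946952 on the plus strand for *LTBP1*, chrX:125204313-125204562 on the minus strand for *TENM1*, chr15:62390300-62390549 on the plus strand for *TLN2* and chr3:124901419-124901668 on the minus strand for *ITGB5*.
FAT1: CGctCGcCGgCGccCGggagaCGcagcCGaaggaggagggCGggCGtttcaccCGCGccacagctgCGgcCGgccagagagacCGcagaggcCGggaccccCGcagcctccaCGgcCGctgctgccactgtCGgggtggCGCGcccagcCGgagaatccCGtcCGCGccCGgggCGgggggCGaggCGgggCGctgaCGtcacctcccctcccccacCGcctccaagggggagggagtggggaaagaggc
LTBP1: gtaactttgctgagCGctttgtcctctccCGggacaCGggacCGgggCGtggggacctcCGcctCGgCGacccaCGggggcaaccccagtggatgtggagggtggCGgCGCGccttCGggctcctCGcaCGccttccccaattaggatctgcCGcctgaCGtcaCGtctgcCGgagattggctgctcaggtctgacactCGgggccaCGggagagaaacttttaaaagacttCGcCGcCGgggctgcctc
TENM1: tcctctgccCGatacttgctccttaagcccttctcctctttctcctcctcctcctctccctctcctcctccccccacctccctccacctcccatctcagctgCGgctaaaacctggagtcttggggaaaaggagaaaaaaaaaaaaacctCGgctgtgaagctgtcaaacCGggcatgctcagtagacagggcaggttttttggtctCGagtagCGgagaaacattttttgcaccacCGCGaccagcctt
TLN2: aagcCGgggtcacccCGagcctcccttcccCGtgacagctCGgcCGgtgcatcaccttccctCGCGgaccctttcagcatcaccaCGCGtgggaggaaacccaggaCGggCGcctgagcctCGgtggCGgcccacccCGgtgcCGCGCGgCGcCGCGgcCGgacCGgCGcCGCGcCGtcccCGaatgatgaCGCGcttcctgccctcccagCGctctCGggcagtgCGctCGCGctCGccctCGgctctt
ITGB5: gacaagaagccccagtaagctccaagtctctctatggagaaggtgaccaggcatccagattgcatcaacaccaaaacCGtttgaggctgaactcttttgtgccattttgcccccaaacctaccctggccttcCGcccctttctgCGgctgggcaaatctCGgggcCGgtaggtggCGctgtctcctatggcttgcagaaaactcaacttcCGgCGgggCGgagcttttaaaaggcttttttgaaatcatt

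The CpG content of these windows differed widely. It was 32 CpG for *FAT1*, 24 for *LTBP1* and 8 for *TENM1*, and 36 for *TLN2* and 9 for *ITGB5*, beside a median of 11 and quartiles of 3 and 23 over 27193 promoters. The letters GGGCGG on either strand, a GC box, occurred in the windows of *FAT1* and *ITGB5*, at 2 places each, and not in those of *LTBP1*, *TENM1* and *TLN2*, and 42.4% of all promoters hold them. Of the 141 genes, 100 matched an entry, and their median was 9 CpG.

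*FAT1* (ENSG00000083857, chr4:186587794-186726722, minus strand) encodes an atypical cadherin of very large size that restrains growth signalling in many tissues. It had 688, 682 and 564 counts in JVM2-CTRL and 12, 8 and 13 in JVM2-2B17. This was 64.0 ± 4.36 CPM in CTRL and 1.15 ± 0.291 CPM in 2B17 (SD, n = 3), and the log2 fold change was −5.79 (SE 0.14, edgeR adjusted *P* = 4.1e-11). Every 2B17 library lay far below every CTRL library.

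*TENM1* (ENSG00000009694, chrX:124375903-125204312, minus strand) encodes a teneurin, a membrane protein that binds latrophilins and other teneurins across cell contacts. Its counts were 678, 734 and 683 in JVM2-CTRL and 23, 16 and 24 in JVM2-2B17, with a log2 fold change of −4.98 (SE 0.12, edgeR adjusted *P* = 3.7e-11). Its relative *TENM3* did not pass the threshold, with 480, 476 and 412 counts against 543, 366 and 398, so its arms overlapped while those of *TENM1* lay apart.

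*LTBP1* (ENSG00000049323, chr2:32946953-33399509, plus strand) encodes the protein that tethers latent TGF-beta to fibrillin and fibronectin fibres. It had 682, 727 and 651 counts in JVM2-CTRL and 10, 6 and 9 in JVM2-2B17, with a log2 fold change of −6.27 (SE 0.13, edgeR adjusted *P* = 1.1e-11). In MEC1 it was at 13, 14 and 15 counts in CTRL and 7, 14 and 12 in 2B17, an overlapping pair of arms and a change not past the threshold (−0.24, SE 0.33). The 2 changes differed between lines by 6.05 on the log2 scale (SE 0.42, adjusted *P* of the interaction = 7.1e-10). *LTBP3* and *LTBP4* did not pass the threshold in JVM2, at −0.30 and −0.18, and *LTBP2* had too few counts to be tested.

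*COL14A1* (ENSG00000187955, chr8:120059780-120373573, plus strand) encodes a collagen that sits on the surface of collagen fibrils and links them to other matrix. Its 622, 606 and 560 counts in JVM2-CTRL stood against 6, 2 and 3 in JVM2-2B17, the steepest fall of the adhesion and matrix genes (−7.23, SE 0.17, edgeR adjusted *P* = 2.8e-11), to 0.623% of the CTRL level. *FAT1*, *TENM1* and *COL14A1* were not in the MEC1 table, whose genes had at least 10 counts over its 6 libraries. Of 6 fibroblast markers, 2 were in the JVM2 table, *PDGFRB* and *COL1A1*, and their summed level was higher where *COL14A1* was low, at 16.3 to 19.5 CPM in CTRL and 23.5 to 29.2 CPM in 2B17. *COL1A2*, *DCN*, *LUM* and *PDGFRA* were in neither table.

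**Figure D1:**
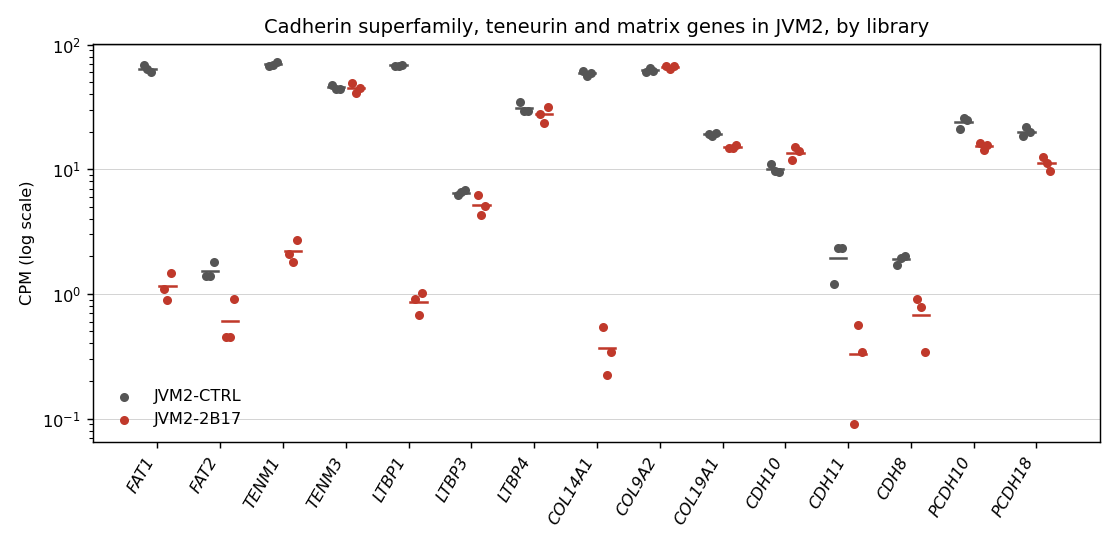
CPM of FAT, teneurin, LTBP, collagen, cadherin and protocadherin genes in each JVM2 library on a log axis, with JVM2-CTRL in grey, JVM2-2B17 in red and a bar at the mean of the 3 libraries. *FAT1*, *TENM1*, *LTBP1* and *COL14A1* lay at 59.3 to 69.5 CPM on average in CTRL and at or below 2.20 CPM in 2B17, while the arms of *TENM3*, *LTBP4* and *COL9A2* overlapped.

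Genes beside these 4 on the chromosome were examined as well, up to 5 tested genes on each side. Of these 3 of 8 fell around *FAT1*, 2 of 10 around *TENM1*, 1 of 10 around *LTBP1* and 2 of 10 around *COL14A1*, beside 15.3% of all genes in the line. Rises were seen in 2 around *LTBP1*, 1 around *COL14A1* and 0 around *FAT1* and *TENM1*, beside 14.1% of all genes. The neighbours spanned 4.37 Mb around *LTBP1* to 9.28 Mb around *TENM1*. The lowest value was −3.59 around *FAT1* (*RP11-11N5.3*), −1.10 around *TENM1* (*GRIA3*), −0.44 around *LTBP1* (*LINC01320*) and −2.81 around *COL14A1* (*DEPTOR*, an inhibitor of mTOR). The highest was 4.47, around *LTBP1* (*CRIM1*), and those around the other 3 lay between 0.20 and 0.67. The median log2 fold change of these neighbours lay between −0.04 and 0.11.

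*FAT2* and cadherins at low levels also fell in JVM2. *FAT2*, a paralog of *FAT1*, had 14, 15 and 17 counts in CTRL and 5, 4 and 8 in 2B17 (−1.35, SE 0.36, edgeR adjusted *P* = 0.014), a call lost with DESeq2, without CTRL library 3 (−1.22) and without 2B17 library 1 (−1.16). *CDH11*, a cadherin of mesenchymal cells, went from 12, 25 and 22 counts to 1, 5 and 3 (−2.59, SE 0.49, adjusted *P* = 0.0017, and −3.20 without 2B17 library 2), and *CDH8* from 17, 21 and 19 to 10, 7 and 3 (−1.43, SE 0.34, adjusted *P* = 0.0073). The arms of all 3 were apart, at mean levels of at most 1.95 CPM. *CDH18* had 6 counts in each CTRL library and 0 in each 2B17 library, too few to be tested. *CDH10* moved the other way, from 111, 104 and 90 counts to 131, 133 and 123 (0.42, SE 0.13, adjusted *P* = 0.025), a call lost with DESeq2 and without CTRL library 2 (0.39), CTRL library 3 (0.39) or 2B17 library 3 (0.40).

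Protocadherins changed in both directions. Of 13 tested in JVM2, 4 fell and 2 rose, beside 15.3% of all genes lower and 14.1% higher. *PCDH18* fell from 187, 233 and 186 counts to 138, 99 and 86 (−0.84, SE 0.12, adjusted *P* = 0.00018) and *PCDH10* from 213, 277 and 234 to 178, 127 and 138 (−0.64), while *PCDH1* rose from 34, 37 and 29 to 71, 44 and 54 (0.82, SE 0.18, adjusted *P* = 0.0038). *PCDHGB4* (−1.22) and *PCDHGB2* (−0.74, edgeR adjusted *P* = 0.026) fell and *PCDHGA12* rose (1.03), all at 38 or fewer counts a library. *PCDHGB2* was not followed by itself under the alternatives. The call of *PCDHGA12* was lost with DESeq2 and without CTRL library 1 (0.75) or 3 (1.06) or 2B17 library 1 (1.08) or 3 (0.78). These last 3 belong to the clustered protocadherins, whose transcripts share their final exons, so their counts are uncertain.

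Laminins changed in both directions in JVM2, where 1 of 4 tested rose and 3 fell, beside 14.1% and 15.3% of all genes. Laminins are trimers of an alpha, a beta and a gamma chain that form the sheet of the basement membrane. *LAMA5*, an alpha chain, rose from 7, 3 and 5 counts to 26, 21 and 18 (2.16, SE 0.34, edgeR adjusted *P* = 0.00043). *LAMB3*, a beta chain of epithelial basement membranes, fell from 35, 55 and 29 counts to 22, 22 and 18 (−0.86, SE 0.25, adjusted *P* = 0.021). The call of *LAMB3* was lost with DESeq2 and without CTRL library 2 (−0.61), 2B17 library 1 (−0.80) or 2B17 library 3 (−0.82). *LAMC1*, the gamma chain of most laminins and the one of these expressed well, fell by little, from 1868, 1962 and 1724 counts to 1792, 1387 and 1396 (−0.21, SE 0.054, adjusted *P* = 0.011), a call lost without CTRL library 3 (−0.21). Collagens changed in 2 of 6 tested (33.3%), beside 29.3% of all genes. Beside *COL14A1* this was *COL19A1* (−0.34), a call lost with DESeq2 and without CTRL library 3 (−0.31) or 2B17 library 1 (−0.32).

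Of 18 integrin subunits tested in JVM2, 6 were higher and 3 lower, beside 14.1% and 15.3% of all genes. In MEC1, 3 of 17 were higher and 7 lower (58.8%), beside 41.7% of all genes changed in either direction. *ITGB5* (ENSG00000082781, chr3:124761948-124901418, minus strand), a beta subunit that pairs with *ITGAV* and binds vitronectin, showed the largest rise of a well-expressed subunit. It had 953, 948 and 864 counts in JVM2-CTRL and 3078, 2571 and 2347 in JVM2-2B17, or 91.7 ± 3.26 against 278 ± 12 CPM (log2 fold change 1.60, SE 0.061, edgeR adjusted *P* = 1.7e-09). Every 2B17 library thus lay well above every CTRL library, while its partner *ITGAV* had overlapping arms (0.19, adjusted *P* = 0.14). In MEC1 *ITGB5* was at 88.0 and 82.9 CPM in the 2 arms (−0.09, adjusted *P* = 0.065, past the threshold without CTRL library 3 at −0.11), and the changes differed between the lines by −1.68 (SE 0.073, adjusted *P* of the interaction = 5.2e-13).

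Among the leukocyte integrins of the beta2 family, *ITGB2* itself rose in JVM2, from 662, 729 and 590 counts to 1239, 1003 and 961 (0.76, SE 0.059, edgeR adjusted *P* = 1.2e-06). In MEC1 its arms overlapped (−0.04) and the lines differed by −0.80 (adjusted *P* = 2.6e-08). Of its alpha partners, *ITGAM*, the subunit of the complement receptor Mac-1, rose from 47, 46 and 53 counts to 128, 91 and 107 in JVM2 (1.22, SE 0.15, adjusted *P* = 5.0e-05) and from 54, 45 and 38 to 127, 125 and 129 in MEC1 (1.58, SE 0.14, adjusted *P* = 2.8e-08). The arms were apart in both lines, and the difference between lines of 0.36 did not pass the threshold (SE 0.20, adjusted *P* = 0.19). *ITGAD* rose in JVM2 from 4, 1 and 1 counts to 29, 24 and 17 (3.53, SE 0.44, adjusted *P* = 7.2e-05) and was not in the MEC1 table. With so few counts in CTRL the size of this rise is uncertain, and it was 4.45 without CTRL library 1.

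*ITGAX*, the subunit known as CD11c, rose in JVM2 from 7, 11 and 5 counts to 21, 16 and 17 (1.29, SE 0.31, edgeR adjusted *P* = 0.0080) and fell in MEC1 from 163, 158 and 128 counts to 71, 98 and 108 (−0.59, SE 0.15, adjusted *P* = 0.0031). The lines differed by −1.88 (SE 0.40, adjusted *P* = 0.0011). *ITGAM*, *ITGAX* and *ITGAD* are related neighbours within 167 kb, and reads shared among them could be counted to any of the 3. *ITGAL*, the alpha subunit of LFA-1, fell in MEC1 from 3675, 3269 and 2911 counts to 1593, 1616 and 1622 (−0.92, SE 0.045, adjusted *P* = 7.8e-12). In JVM2 its arms overlapped (−0.12), and the difference between lines was −0.79 (adjusted *P* = 6.0e-07). *ITGB2-AS1*, an antisense RNA over 8630 bases of *ITGB2*, fell in MEC1 (−0.45) and rose in JVM2 (0.64), a rise lost with DESeq2 and without CTRL library 2 (0.66), CTRL library 3 (0.56) or 2B17 library 3 (0.50). Without a stated strand, its reads and those of *ITGB2* cannot be told apart.

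**Figure D2:**
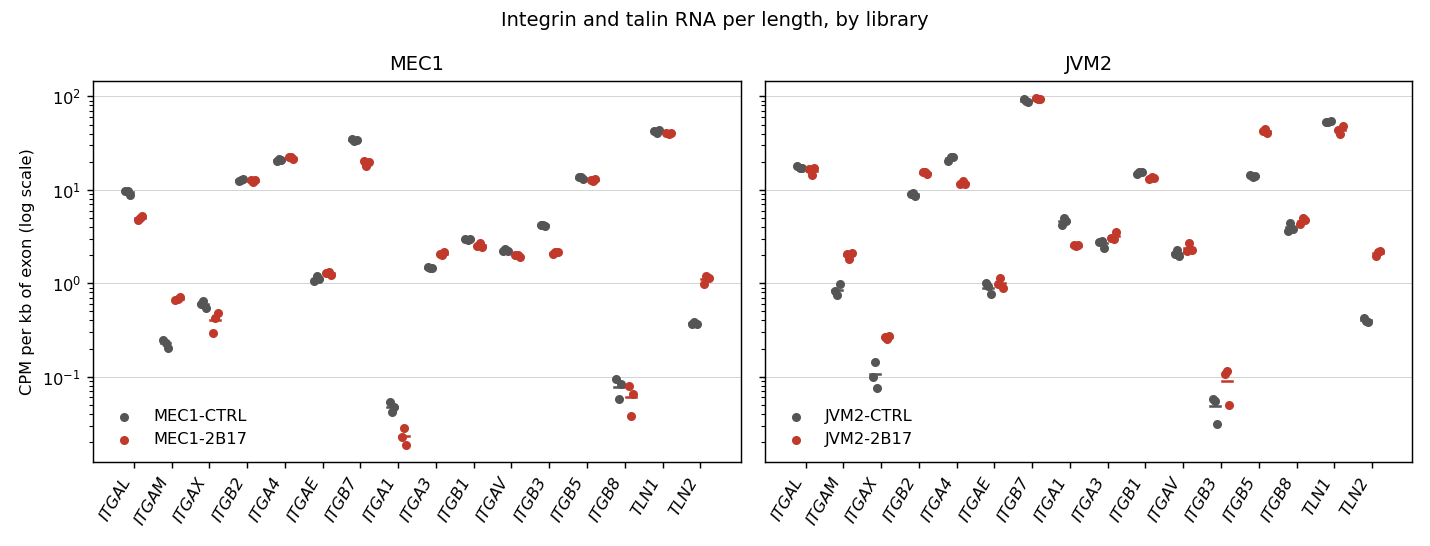
CPM per kb of exon, on a log axis, for integrin subunits and talins in each library of MEC1 and JVM2, with CTRL in grey, 2B17 in red and a bar at the mean of 3 libraries. *ITGB7* held the highest integrin level in both CTRL arms, *ITGB5* rose from 14.1 to 42.7 in JVM2, and *TLN2* rose from 0.373 in MEC1 and 0.404 in JVM2.

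Per kb of exon, *ITGB7* had the highest level of the integrin subunits in both CTRL arms, at 34.1 CPM per kb in MEC1 and 90.2 in JVM2. *ITGA4* followed, at 20.9 and 21.8 CPM per kb. Next in MEC1 came *ITGB5* (13.5) and *ITGB2* (12.8), and in JVM2 *ITGAL* (17.5), *ITGB1* (15.2) and *ITGB5* (14.1). *ITGB7* fell in MEC1 from 5865, 5134 and 5033 counts to 3023, 2647 and 2769 (−0.82, SE 0.037, edgeR adjusted *P* = 2.7e-12), and in JVM2 its arms overlapped (0.06). Its partner *ITGA4* did the reverse: it fell in JVM2 from 2195, 2558 and 2259 counts to 1353, 1191 and 1077 (−0.88, SE 0.064, adjusted *P* = 6.7e-07) and did not pass the threshold in MEC1 (0.08, adjusted *P* = 0.062, past it without 2B17 library 3 at 0.11). The difference between lines was −0.88 for *ITGB7* (adjusted *P* = 5.4e-09) and 0.97 for *ITGA4* (adjusted *P* = 2.9e-09). One subunit of the pair was thus lower in each line, *ITGB7* at 56.7% of its CTRL level in MEC1-2B17 and *ITGA4* at 54.3% in JVM2-2B17.

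The beta1 family, which binds collagens, laminins and fibronectin, moved little in its shared subunit. *ITGB1* was lower in 2B17 in both lines, at −0.21 in MEC1 (SE 0.048, edgeR adjusted *P* = 0.0020). Its change in JVM2 was −0.18 (SE 0.055, adjusted *P* = 0.026). The JVM2 call was lost without CTRL library 2 (−0.16) or 3 (−0.17) or 2B17 library 1 (−0.17) or 3 (−0.18). *ITGA1*, a collagen-binding subunit, also fell in both, from 38, 27 and 29 counts to 14, 17 and 11 in MEC1 (−1.05, SE 0.25, adjusted *P* = 0.0024) and from 779, 990 and 804 to 520, 410 and 422 in JVM2 (−0.86, SE 0.074, adjusted *P* = 3.0e-06). *ITGA3* and *ITGA7*, which bind laminin, rose in MEC1 at 0.49 and 0.82, and *ITGA5*, which binds fibronectin, rose in JVM2 at 0.62. *ITGB3*, the partner of *ITGAV* in the vitronectin receptor, fell in MEC1 from 1096, 994 and 927 counts to 475, 481 and 471 (−0.97, SE 0.054, adjusted *P* = 4.8e-11), and *ITGAV* by −0.19 (adjusted *P* = 0.0024). *ITGA10*, *ITGAE*, *ITGB4* and *ITGB8* passed the threshold in neither line, with log2 fold changes from −0.37 to 0.66, and *ITGB8* was past it in JVM2 without CTRL library 2 (0.32) or 2B17 library 1 (0.29) or 2 (0.18).

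The talins were split. *TLN2* (ENSG00000171914, chr15:62390526-62844631, plus strand), the talin of heart, brain and muscle, rose in both lines, from 225, 215 and 199 counts to 534, 630 and 584 in MEC1 (1.56, SE 0.084, edgeR adjusted *P* = 2.9e-11). Counts in JVM2 went from 70, 69 and 59 to 351, 312 and 320 (2.38, SE 0.11, adjusted *P* = 7.3e-09). The rise was steeper in JVM2, with a difference of −0.82 (SE 0.15, adjusted *P* = 0.00020). *TLN1*, the talin of leukocytes, was 42.3 CPM per kb of exon in MEC1-CTRL and 53.6 in JVM2-CTRL, beside 0.373 and 0.404 for *TLN2*. It did not pass the threshold in MEC1 (−0.07, adjusted *P* = 0.13) and fell by 0.28 on the log2 scale in JVM2 (SE 0.067, adjusted *P* = 0.0068). *TLN2* remained well below *TLN1* in 2B17 cells, at 1.10 and 2.12 CPM per kb.

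**Figure D3:**
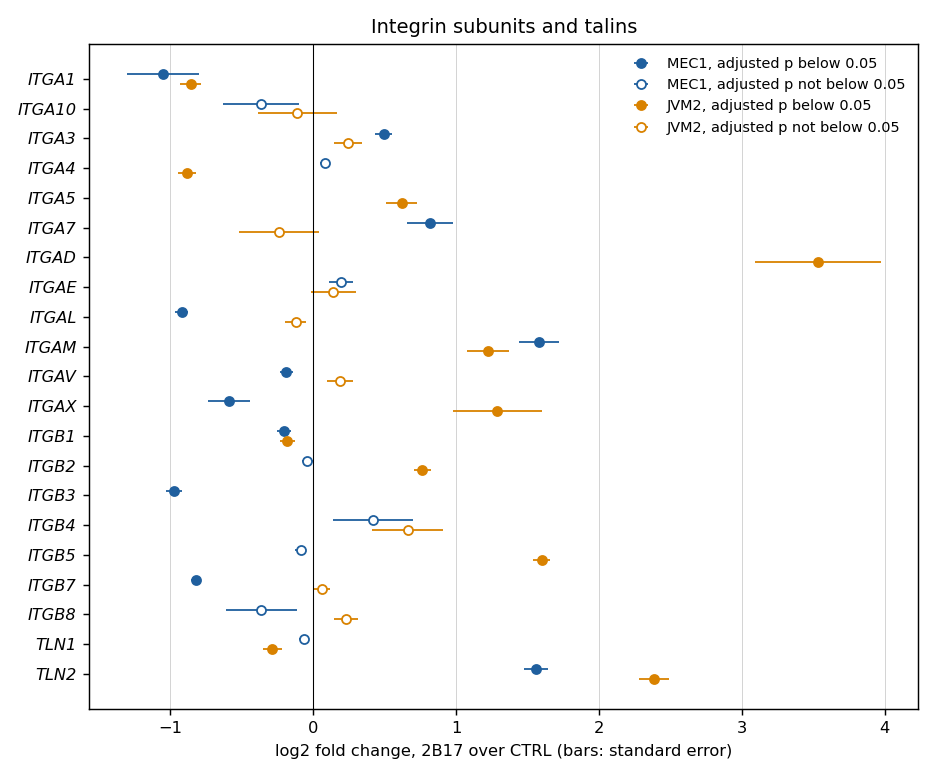
Log2 fold change of 2B17 over CTRL for each integrin subunit and talin tested in MEC1 (blue) or JVM2 (orange), with bars of 1 standard error and filled points where the adjusted *P* was below 0.05. *ITGAM* and *TLN2* lie to the right of 0 in both lines, *ITGA1* and *ITGB1* to the left in both, and *ITGAX* on opposite sides.

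In MEC1 the largest changes outside the integrins were rises of 2 laminin chains and the fall of a cadherin. *LAMB2* (ENSG00000172037, chr3:49121114-49133118, minus strand), a beta chain of synaptic and kidney basement membranes, went from 3, 4 and 5 counts to 34, 41 and 30 (3.19, SE 0.33, edgeR adjusted *P* = 2.0e-07). *LAMC3* (ENSG00000050555, chr9:131009174-131094473, plus strand), a gamma chain, went from 14, 13 and 12 counts to 66, 80 and 57 (2.47, SE 0.22, adjusted *P* = 3.4e-08). Arms were apart for both, yet the level reached in 2B17 was 1.07 and 2.07 CPM, and neither gene was in the JVM2 table. *LAMC1*, at 125 and 127 CPM in the 2 arms, did not pass the threshold in MEC1 (0.02), and *LAMA3* fell from 139, 115 and 118 counts to 78, 93 and 97 (−0.36, adjusted *P* = 0.030), a call lost with DESeq2 and without CTRL library 1 (−0.34) or 3 (−0.36) or 2B17 library 1 (−0.25).

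*CDH17* (ENSG00000079112, chr8:94127162-94217303, minus strand), a cadherin of the gut lining, fell in MEC1 from 367, 328 and 309 counts to 57, 51 and 41, or from 9.50 ± 0.175 to 1.51 ± 0.202 CPM (−2.64, SE 0.11, edgeR adjusted *P* = 1.4e-12). *CDH1*, E-cadherin, rose from 1009, 974 and 824 counts to 1455, 1498 and 1414 (0.75, SE 0.053, adjusted *P* = 1.4e-09). In JVM2 *CDH17* was not in the table and *CDH1* had 1 to 5 counts a library, so neither could be tested there alone. Of 5 epithelial markers, of which *CDH1* is 1, 4 were in the MEC1 table and *KRT19* was absent from it. The 4 summed to 26.4 to 30.0 CPM in CTRL and 45.8 to 48.9 CPM in 2B17, with *CDH1* alone at 26.6 and 44.5 CPM. In MEC1 3 of these markers had enough counts for a test, and 2 were higher, *CDH1* and another that rose over 2-fold. The part of other epithelial genes in the rise of *CDH1* was not tested.

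**Figure D4:**
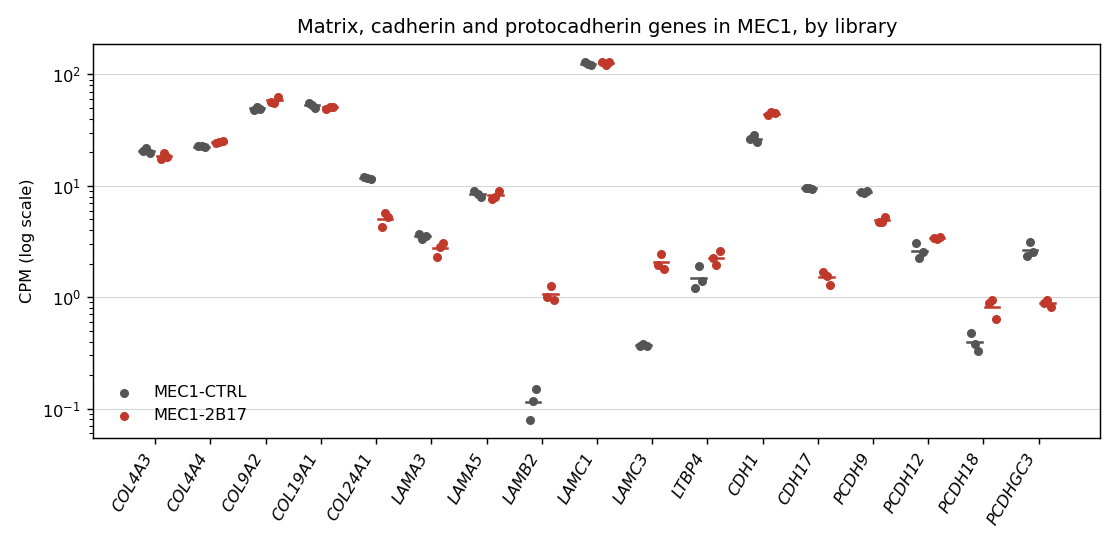
CPM of collagen, laminin, LTBP, cadherin and protocadherin genes in each MEC1 library on a log axis, with MEC1-CTRL in grey, MEC1-2B17 in red and a bar at the mean of the 3 libraries. *LAMB2* and *LAMC3* rose from 0.115 and 0.369 CPM, *CDH17* fell to 1.51 CPM, and *LAMC1*, *LAMA5* and *COL19A1* had overlapping arms.

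Of 17 collagens tested in MEC1, 4 were past the threshold (23.5%), beside 41.7% of all genes. *COL24A1*, a fibril collagen, fell from 452, 402 and 380 counts to 144, 185 and 167 (−1.21, SE 0.093, edgeR adjusted *P* = 4.6e-09), and in JVM2 it did not pass the threshold (−0.18), a difference of −1.02 (adjusted *P* = 0.00012). *COL9A2* rose by 0.24 (adjusted *P* = 0.00078). *COL4A3* and *COL4A4*, chains of the kidney basement membrane whose starts are 171 bases apart on opposite strands, were past the threshold at −0.16 and 0.14, and the arms of *COL4A3* overlapped. DESeq2 called neither, and *COL4A3* was lost without CTRL library 1 (−0.17) or 2 (−0.12) or 2B17 library 1 (−0.12) or 3 (−0.14). *COL4A4* was lost without any CTRL library (0.13 to 0.15) and without 2B17 library 2 (0.15) or 3 (0.14). *COL1A1*, the main bone and skin collagen, was at 28 to 59 counts a library and did not pass the threshold (0.45).

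Among protocadherins tested in MEC1, 3 of 13 rose and 2 fell, in all 38.5% beside 41.7% of all genes. *PCDH9* fell from 337, 294 and 299 counts to 161, 156 and 165 (−0.84, SE 0.087, edgeR adjusted *P* = 2.2e-07), and *PCDHGC3* from 90, 108 and 84 to 30, 31 and 26 (−1.59, SE 0.18, adjusted *P* = 6.3e-07). *PCDH18* rose from 18, 13 and 11 counts to 30, 31 and 20 (1.05, SE 0.27, adjusted *P* = 0.0039), opposite to JVM2, and the lines differed by 1.89 (SE 0.29, adjusted *P* = 3.9e-05). *PCDH12* (0.37, edgeR adjusted *P* = 0.032), *PCDHGA9* (0.73) and, among the latent TGF-beta binding proteins, *LTBP4* (0.60, adjusted *P* = 0.011) also rose in MEC1. *PCDHGC3* and *PCDHGA9* are clustered protocadherins that share final exons, so their counts are uncertain too. *PCDH12* was not followed by itself under the alternatives. *PCDHGA9* was lost with DESeq2 and without any of the libraries but CTRL library 1 (0.56 to 0.80), and *LTBP4* without CTRL library 1 (0.46) or 2B17 library 3 (0.51).

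In both lines 38 of these genes were tested. In 4 the change was past the threshold and of the same sign, with *ITGAM* and *TLN2* higher and *ITGA1* and *ITGB1* lower in 2B17. This was 10.5%, beside 8.37% of all genes tested in both lines. In 3 the signs were opposite, *ITGAX*, *ITGB2-AS1* and *PCDH18*, which was 7.89% beside 7.43%. Both shares were thus near those of all genes. A further 10 were changed in MEC1 alone, 9 in JVM2 alone and 12 in neither, and the shares of all genes in these 3 classes were not computed. The change differed between lines in 27 of the 65 genes for which the interaction could be tested (41.5%), beside 32.0% of all genes. *LTBP1*, whose fall in JVM2 was known when the genes were chosen, is among the 27.

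**Figure D5:**
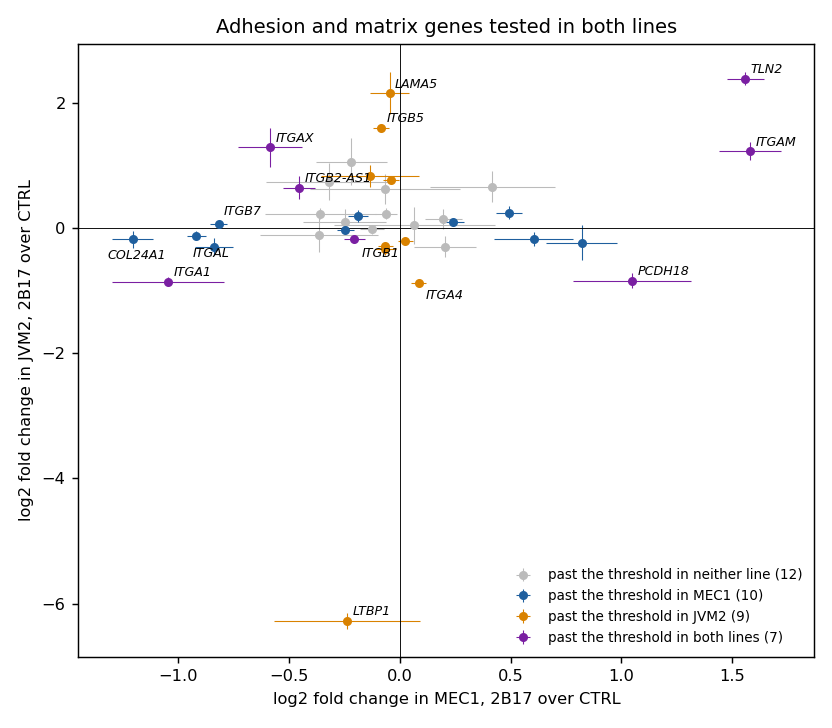
Log2 fold change of 2B17 over CTRL in JVM2 against that in MEC1 for the 38 genes tested in both lines, with bars of 1 standard error and colours for the line in which the gene was past the threshold. *TLN2* and *ITGAM* lie at the upper right, *LTBP1* far down at −6.27 in JVM2 and −0.24 in MEC1, and *ITGAX* and *PCDH18* in opposite corners.

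Genes that work with these proteins were counted in 6 lists. Beside each count is the share of the list that changed in either direction, set against the share of all genes tested in the line. Of the adaptors and signalling proteins of integrin adhesion, 28 were tested in MEC1, where 7 rose and 17 fell (85.7% beside 41.7%), and 30 in JVM2, where 7 rose and 10 fell (56.7% beside 29.3%). Their median log2 fold changes were −0.14 and 0.03. Most of these changes were small. Over 2-fold were 1 of the 28 in MEC1 and 3 of the 30 in JVM2, beside 5.30% and 6.23% of all genes. *VCL*, vinculin, fell in both lines, from 2532, 2310 and 2430 counts to 1308, 1216 and 1150 in MEC1 (−0.88, edgeR adjusted *P* = 3.0e-11) and from 283, 311 and 261 to 175, 150 and 161 in JVM2 (−0.74, adjusted *P* = 5.6e-05). *ACTN1*, alpha-actinin, fell in MEC1 (−1.05), as did *ZYX*, zyxin (−0.87). *TNS1* and *TNS3*, tensins that bind the beta tail, fell in JVM2 at −2.40 and −1.41, *TNS1* at no more than 51 counts a library.

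Counter-receptors and soluble ligands of integrins rose in 6 and fell in 2 of 13 tested in MEC1 (61.5% beside 41.7% of all genes), and rose in 2 and fell in 2 of 8 in JVM2 (50% beside 29.3%). Their median log2 fold changes were 0.32 and −0.01. *VCAM1*, the partner of VLA-4, moved in opposite directions, from 383, 305 and 299 counts to 107, 110 and 110 in MEC1 (−1.48, SE 0.097, edgeR adjusted *P* = 4.6e-10) and from 39, 30 and 46 to 88, 103 and 88 in JVM2 (1.35, SE 0.21, adjusted *P* = 0.00036). *FN1*, fibronectin, fell in MEC1 from 152, 137 and 137 counts to 20, 28 and 16 (−2.62, SE 0.17, adjusted *P* = 4.9e-10) and had overlapping arms in JVM2. Of the junctional adhesion molecules, *JAM3* rose in MEC1 (1.14) and had too few counts in JVM2, and *JAM2* rose in JVM2 (1.03) and did not pass the threshold in MEC1 (−0.12).

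Catenins and other cadherin partners rose in 6 and fell in 4 of 16 tested in MEC1 (62.5% beside 41.7% of all genes), and rose in 1 and fell in 6 of 13 in JVM2 (53.8% beside 29.3%). Their median log2 fold changes were −0.01 and −0.16. *CTNND2*, delta-catenin, rose in MEC1 from 15, 16 and 9 counts to 298, 308 and 289 (4.58, SE 0.15, edgeR adjusted *P* = 5.7e-14). In JVM2 it had 9, 16 and 17 counts in CTRL and 0 in each 2B17 library, too few to be tested. *CELSR1*, an atypical cadherin of planar polarity, rose in both lines (0.96 and 1.21), *PKP2*, a plakophilin, fell in MEC1 (−1.81), and *CTNNA2* and *DCHS2* fell in JVM2 (−1.21 and −0.69). *CTNNB1*, beta-catenin, was past the threshold in neither line (−0.07 and 0.07).

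Of the genes around *LTBP1*, which hold or receive TGF-beta, 3 of 14 rose and 4 fell in MEC1 (50% beside 41.7% of all genes), and 1 of 12 rose and 4 fell in JVM2 (41.7% beside 29.3%). Their median log2 fold changes were −0.01 and −0.17. *TGFBR2*, the ligand-binding receptor, fell in MEC1 from 209, 177 and 175 counts to 32, 23 and 25 (−2.70, SE 0.15, edgeR adjusted *P* = 3.2e-11) and was not in the JVM2 table. *FBN1*, the fibrillin to which *LTBP1* binds, fell in both lines (−1.67 and −0.57), and *EFEMP1*, a fibulin, rose in MEC1 (2.95) from 21, 10 and 13 counts to 121, 99 and 98. *TGFB1* itself passed the threshold in neither line (0.10 and −0.24).

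Collagen-modifying enzymes and chaperones rose in 8 and fell in 1 of 17 tested in MEC1 (52.9% beside 41.7% of all genes), and rose in 5 and fell in 6 of 16 in JVM2 (68.8% beside 29.3%), with median log2 fold changes of 0.13 and −0.12. The fall in MEC1 was that of *P4HA2* (−1.15), and *PLOD1*, a lysyl hydroxylase, fell in JVM2 (−0.71). *LEPREL2*, a prolyl 3-hydroxylase, rose in JVM2 from 2, 3 and 0 counts to 16, 17 and 16 (edgeR adjusted *P* = 0.00041), and with CTRL libraries at 3 counts or fewer its fold is not given. Latrophilins, syndecans and other matrix receptors rose in 6 and fell in 4 of 14 in MEC1 (71.4% beside 41.7% of all genes), and rose in 3 and fell in 7 of 12 in JVM2 (83.3% beside 29.3%). Their median log2 fold changes were 0.10 and −0.27. *DDR2*, a collagen receptor kinase, fell in both lines (−0.91 and −0.77), *SDC1*, a syndecan of plasma cells, rose in MEC1 (0.77) and fell in JVM2 (−0.48), and *SDC3* rose in JVM2 (1.53).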

How the data were processed

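Total RNA of the CTRL and 2B17 arms of MEC1 and JVM2, 3 biological replicates each, was sequenced from both ends after removal of ribosomal RNA. Sequencing took place at 2 sites, and the site of each sample is not given in the sources used here. The authors processed the reads with the MUGQIC pipeline on hg38, and the submitters' processing notes name Trimmomatic, TopHat2 2.0.14, HTSeq, DESeq2 and edgeR. For each line the authors deposited a table, of which the raw read counts per Ensembl gene and replicate, not normalized, were used here. The lowest total of a listed gene was 10 counts over the 6 libraries of the line. The authors' own fold changes and *P*-values in the same tables and 12 columns of rounded normalized values were not used, and whether counting used strand is not given in the sources used here.

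Samples were grouped by the labels. Each line was fitted on its own over its whole table with edgeR 4.0.16 in R 4.3.3, with TMM normalization, filterByExpr at its defaults (minimum count 10, minimum total 15) and the quasi-likelihood F-test, and *P*-values were adjusted by Benjamini-Hochberg over the 16581 genes tested in MEC1 and the 13021 in JVM2. The difference between lines was tested as the line-by-arm interaction in a fit of all 12 libraries over genes in both tables. CPM used TMM library sizes, and CPM per kb used the exon union of GENCODE 44. Promoters were RefSeq entries of GRCh38.p14. The scripts were checked on simulated counts. Libraries held 31762649 to 37744991 counts in MEC1 and 8809179 to 11231330 in JVM2, with a common biological coefficient of variation of 4.22% and 6.92%. For *UGT2B17* alone, the exact permutation test gave *P* = 0.1 in each line, two-sided, the smallest that 3 against 3 allows.

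Genes, lists and markers were chosen with earlier results of these data known. By rule the text names *FAT1*, *TENM1*, *LTBP1* and *COL14A1*, every integrin subunit and talin tested, up to 4 genes of each other family and of each list with the largest change past the threshold in a line, and every gene changed in both lines. Others, such as *TENM3*, *PCDH10*, *PCDH12*, *CDH18*, *COL1A1*, *TGFB1* and *CTNNB1*, were named after their values were seen. Some genes that the rule names are not reported here. The alternatives were RLE scaling, library size only, DESeq2 1.42.0, calls in both tools, no filter, the replicate number as a block, at least 10 counts in each of the libraries, each library left out, protein-coding genes alone, and no clustered protocadherins. Figures were drawn in Python 3.11.15.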

Additional observations from a re-analysis of the deposited data

Results flagged for a closer look

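The change with 2B17 differed between the lines, by the edgeR interaction test at an adjusted *P* below 0.05, in 24 of the genes described with their values, and each is given with its log2 fold change in MEC1 minus that in JVM2. The value was positive, so that the 2B17 arm stood higher against its CTRL arm in MEC1 than in JVM2, for *LTBP1* (6.05), *PCDHGB4* (2.50), *CDH8* (2.09), *PCDH18* (1.89), *ITGA7* (1.06), *ITGA4* (0.97), *LTBP4* (0.79), *COL19A1* (0.28), *LAMC1* (0.24) and *TLN1* (0.22). It was negative for *LAMA5* (−2.21), *ITGAX* (−1.88), *ITGB3* (−1.88), *ITGB5* (−1.68), *PCDHGC3* (−1.65), *ITGB2-AS1* (−1.09), *COL24A1* (−1.02), *PCDH1* (−0.96), *ITGB7* (−0.88), *TLN2* (−0.82), *ITGB2* (−0.80), *ITGAL* (−0.79), *PCDH9* (−0.54) and *ITGAV* (−0.37). For 4 of these the counts in 1 line were too low for a test of that line by itself, and its side of the difference rests on few reads: *PCDHGB4* had 0 to 7 and *CDH8* 2 to 6 a library in MEC1, and *ITGB3* 2 to 8 and *PCDHGC3* 3 to 7 in JVM2. The fall of *LTBP1* in JVM2 was known when the genes were chosen, so its value here is a description. *PCDHGB4* and *PCDHGC3* are clustered protocadherins, whose counts are uncertain because their transcripts share final exons. The MEC1 arms differ in construct and antibiotic and the JVM2 arms do not, and the difference between lines cannot be told apart from that between control designs. With 3 libraries an arm, genes were not searched one by one for a library far from the other libraries of its arm.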

How the results depend on the processing

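The genes changed numbered 28 in MEC1 and 31 in JVM2, with 4 changed alike and 3 oppositely, and 27 differed between the lines. With at least 10 counts in every library, which tests fewer genes, 19 were changed in JVM2 and 19 differed between the lines. DESeq2 called 23 in MEC1 and 24 in JVM2. Leaving out 1 library gave 24 to 27 in MEC1, 24 to 34 in JVM2, 3 to 6 changed alike, 2 to 4 oppositely and 22 to 28 differing. Under either other scaling the split in JVM2 stayed at 12 higher and 19 lower, and in MEC1 it was 13 and 14 or 13 and 17. No named gene changed direction past the threshold under any alternative run. For single named genes, 864 values kept their side of the threshold, 63 lost it and 8 gained it, those lost being the weak calls given in the report. Depth limits JVM2, where genes under about 1 CPM were not tested.

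Same-numbered replicates were not described as handled together, and their deviations from the arm means correlated at −0.042, −0.0067 and 0.040 in MEC1 and 0.086, 0.117 and −0.0059 in JVM2, so the numbers were not taken to pair the samples. With the replicate block, 28 genes were changed in MEC1, 32 in JVM2, 4 alike and 3 oppositely, and 28 differed between the lines.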

Other observations

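Some rows that share the symbols but encode other proteins carried well-measured RNA. *COL4A3BP*, a ceramide transfer protein, had 3266, 2846 and 2690 counts in MEC1-CTRL and 2374, 2325 and 2187 in MEC1-2B17 (−0.25, edgeR adjusted *P* below the threshold), and −0.04 in JVM2, not past it, a difference between lines of −0.21 (interaction adjusted *P* = 0.035). *ITGB3BP*, a centromere protein, was past the threshold in neither line (−0.06 and 0.23), yet its changes differed between the lines by −0.29 (interaction adjusted *P* = 0.038). *PCDHGB5*, a clustered protocadherin with uncertain counts, likewise differed by −1.28 (interaction adjusted *P* = 0.016) with no call in either line (−0.22 and 1.06). These 3, named after their values were seen, complete the 27 genes that differed between the lines.

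Genes too low to test in JVM2 held a few more contrasts between arms. *COL11A1* had 2, 8 and 1 counts in CTRL and 0 in each 2B17 library, *TENM2* had 5, 5 and 3 against 1, 0 and 2, and *PCDHGA2* 4, 6 and 5 against 0, 1 and 1. *COL22A1* lay the other way, at 3, 5 and 6 counts in CTRL and 9, 10 and 9 in 2B17. These counts were not tested.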
